A study of Mus musculus with 12 samples.

Results

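Variable segments of both T cell receptor chains, alpha and beta, were measured as 67 genes of a table of 21839, in RNA of sorted mouse CD4 T cells. The table held 115 rows whose Ensembl identifier carries a Trav or Trbv symbol, 94 alpha and 21 beta, and a segment was kept where at least 10 counts were present in 3 or more of the 12 libraries. That left 46 alpha and 21 beta segments, and all 67 also passed the low count filter used for testing.

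A T cell receptor is a pair of an alpha and a beta chain, and each chain joins a variable domain to a constant region encoded by Trac, or by Trbc1 or Trbc2. During development in the thymus each cell cuts and rejoins its DNA so that a single variable segment (V) is linked to a joining segment (J), with a diversity segment (D) between them in the beta chain. A mature T cell no longer recombines, so the V segments in the RNA of a population describe which receptors its cells carry, weighted by the RNA each cell makes. Some mouse beta segments, among them the Trbv12 group, Trbv15 and Trbv16, are known for binding superantigens encoded by endogenous mammary tumour viruses. The alpha locus of C57BL/6 mice holds repeated blocks of near-identical segments, and names ending the family number with d or n mark those copies.

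The study profiled T cells that its labels call regulatory (Tregs), from C57BL/6 mice whose dendritic cells have or lack autophagy. All mice carried Atg5 flox/flox, a gene needed for autophagy. WT mice were CD11c Cre -/- and TG mice carried CD11c Cre +/-, which removes Atg5 in cells expressing CD11c, mainly dendritic cells but also other CD11c-positive cells. The T cells themselves were not the target. From spleen and lymph nodes, CD4 cells were taken by another surface marker together with high or low CD25, the interleukin-2 receptor chain encoded by Il2ra. Each genotype had a CD25 High and a CD25 Low group, named WT High, WT Low, TG High and TG Low here, with 3 libraries in every one of these 4 groups. Ages were not given, and neither was whether the 3 replicates of a group were different animals. The spread behind each p-value is therefore that of the libraries, which may be technical. Libraries with the same replicate number deviated together across all genes, so comparisons were fitted both without the number and with it as a block.

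Library totals ran from 6767828 counts (TG High replicate 2) to 23942479, and V segments took 0.118% to 0.149% of them. The summed level of the CD4 T cell genes Cd4, Cd3e, Cd3d and Cd3g ran from 2690 to 3644 CPM, which are counts scaled to a common library size by the TMM method. Foxp3, the transcription factor of Tregs, stood at 1412 to 1662 CPM in CD25 High and 983 to 1193 in CD25 Low, and Il2ra at 1072 to 1309 and 481 to 734. The CD8 T cell genes Cd8a and Cd8b1 summed to between 26.9 and 41.1 CPM, and 5 B cell genes to between 356 and 1039. Rag1 and Rag2, which cut DNA at V segments, were at 0.53 CPM or below in every library, and Ptcra, the partner of the beta chain in immature thymocytes, at 0.0545 or below. Dntt, which adds bases at the junctions in immature cells, ran from 1.22 to 4.70 CPM.

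Alpha segments were read along chromosome 14 (GRCm38, positions 52427928 to 53876752) and beta segments along chromosome 6 (40891229 to 41558452), with all positions from the GENCODE vM21 annotation. The beta locus gave 130 to 32875 counts per segment over the 12 libraries, the alpha locus 94 to 2928 per kept segment. How well a read can be placed differed between the loci. Of the 21 beta segments, 17 share no stretch of 50 bases with any other annotated transcript, whereas among the 46 alpha segments 6 share none, and the median alpha segment has 56% of its 50-base stretches to itself. The other 4 beta segments have 22.6% (Trbv5), 98.8% (Trbv12-2), 99.7% (Trbv13-2) and 99.7% (Trbv13-3) to themselves. Trbv5 shares sequence with the transcript 5830405F06Rik. Its values, like those of alpha segments with near-identical copies, depend on how the authors' counting treated reads that align to more than 1 gene, which is not given in the sources used here.

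**Figure D1:**
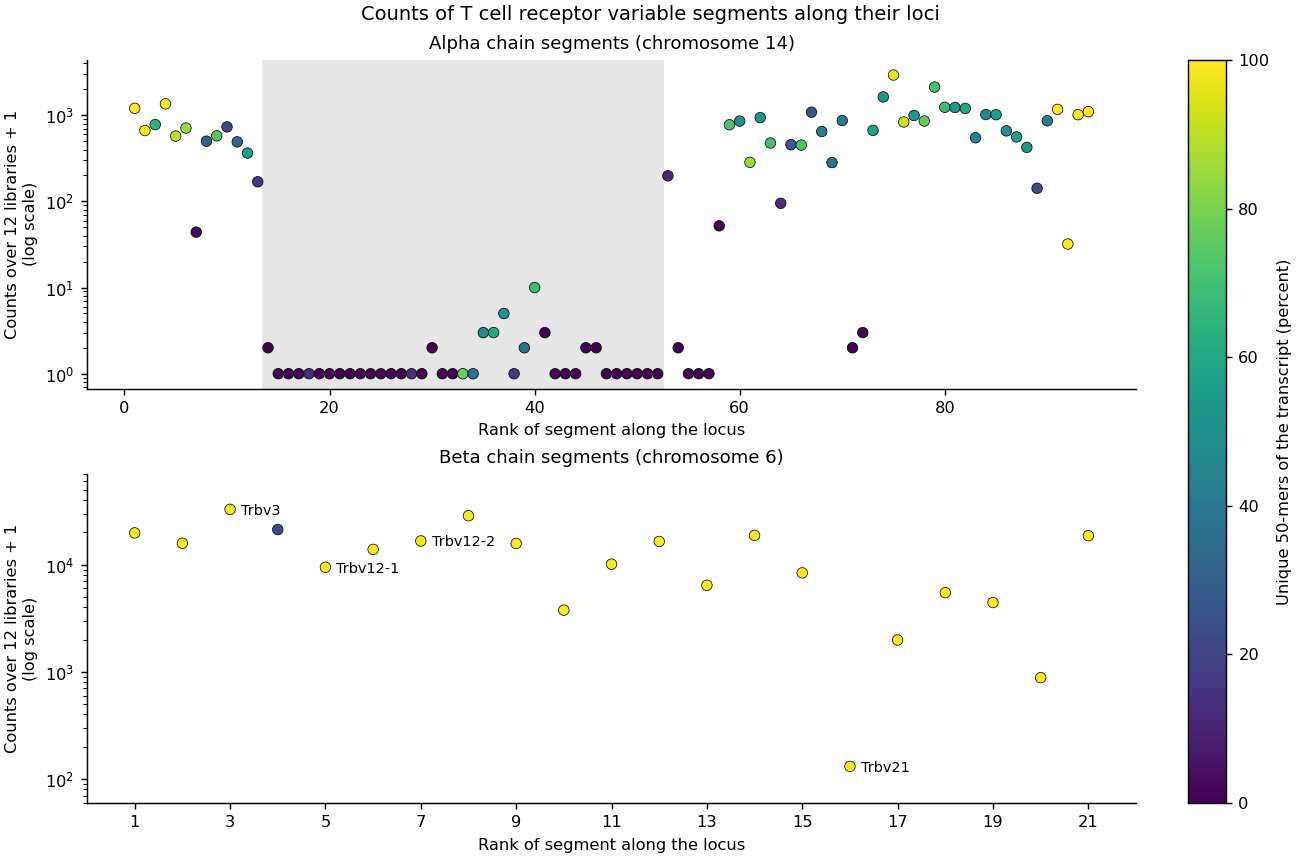
Counts of each V segment summed over the 12 libraries, plus 1, on a log scale, against its rank along the locus for the alpha chain (top, 94 rows) and beta chain (bottom, 21 rows). Colour gives the percent of its 50-base stretches that no other annotated transcript shares; the grey band marks 39 alpha rows in a row that hold 24 counts together.

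The 3' end of a V segment is the part that is joined to J, and it encodes the conserved cysteine that opens the antigen-contacting loop CDR3. The following 45-base ends show the segments the results turn on, from GENCODE vM21 transcripts of GRCm38 in 5' to 3' direction, with the codon of that cysteine in capitals. All lie on the plus strand: Trbv1 at chr6:40891229-40891885, Trbv3 at chr6:41048290-41048828, Trbv13-2 at chr6:41121396-41121832, Trbv12-1 at chr6:41113550-41114067, Trbv12-2 at chr6:41118851-41119364, Trav14-1 at chr14:53554022-53554558, Trav14-2 at chr14:53640701-53641225 and Trav12-2 at chr14:53616315-53616914.
Trbv1: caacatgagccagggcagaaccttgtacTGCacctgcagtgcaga
Trbv3: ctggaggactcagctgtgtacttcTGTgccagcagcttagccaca
Trbv13-2: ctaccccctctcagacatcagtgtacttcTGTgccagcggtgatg
Trbv12-1: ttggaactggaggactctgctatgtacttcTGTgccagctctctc
Trbv12-2: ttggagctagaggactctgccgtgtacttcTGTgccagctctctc
Trav14-1: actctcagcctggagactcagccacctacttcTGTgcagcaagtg
Trav14-2: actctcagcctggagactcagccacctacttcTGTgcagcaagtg
Trav12-2: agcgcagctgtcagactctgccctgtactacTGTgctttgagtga
Trbv1 keeps a TGC codon where the other 7 have TGT.

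Trbv12-1 and Trbv12-2 are neighbours on the beta locus, shown because their ratio within a library is described with the CD25 gates. Over their last 240 bases they differ at 29 positions (87.9% identity), shown here in capitals, and Trbv12-1 has no 50-base stretch in common with another transcript.
Trbv12-1: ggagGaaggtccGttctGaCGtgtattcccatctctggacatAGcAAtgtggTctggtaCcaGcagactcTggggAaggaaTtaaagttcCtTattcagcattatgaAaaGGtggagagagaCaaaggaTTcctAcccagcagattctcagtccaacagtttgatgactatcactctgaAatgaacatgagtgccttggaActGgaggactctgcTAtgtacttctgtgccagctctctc
Trbv12-2: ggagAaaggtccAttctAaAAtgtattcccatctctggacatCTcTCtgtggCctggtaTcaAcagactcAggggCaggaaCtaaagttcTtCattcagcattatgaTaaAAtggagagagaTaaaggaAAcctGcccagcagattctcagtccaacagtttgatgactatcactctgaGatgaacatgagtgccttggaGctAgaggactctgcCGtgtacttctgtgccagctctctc

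A block of 39 consecutive alpha rows from chr14:52821922-53284175, between Trav10d and Trav9n-4, was close to empty. These rows held 24 counts together in the 12 libraries, 29 of them held none, and the highest held 9. Of the 39, 28 have no 50-base stretch of their own, so a count that keeps only uniquely placed reads could leave them empty whether or not they are transcribed. At a threshold of 30% of stretches unique, chosen after the values were seen, 7 rows of the block were distinguishable and held 18 counts together. They were Trav8d-2 (76.9% unique, no count), Trav16d-dv11 (37.2%, no count), Trav13d-4 (46.8%, 2 counts), Trav14d-3-dv8 (61.2%, 2 counts), Trav7n-4 (50.7%, 4 counts), Trav10n (36.4%, 1 count) and Trav6n-6 (68.4%, 9 counts). A count of 0 at this depth does not show that such a row is silent.

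Trav8n-2, a kept segment downstream of the block, held 774 counts, whereas Trav8d-2 held none. Among the rows that cannot be distinguished, Trav12d-2 and Trav12n-2 are identical over 341 bases. By name, 35 of 38 plainly named alpha rows were kept, against 6 of 30 d copies and 5 of 26 n copies. Among alpha rows outside the block that were not kept, Trav18 is distinguishable throughout and held 31 counts. Trav11, the alpha segment of invariant natural killer T cells in the mouse, held 2 counts and its identical copy Trav11d none; the pair cannot be told apart over 342 bases.

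Levels between segments were compared per kilobase of exon. Trbv13-2 was the highest beta segment at 368 CPM per kilobase (mean of 12 libraries), ahead of Trbv3 at 315, Trbv5 at 253 and Trbv1 at 206. Trbv13-3 (203), Trbv31 (194), Trbv12-2 (189) and Trbv16 (181) followed. Trbv1 lies at the far 5' end of the locus, and Trbv31 lies beyond the constant regions on the minus strand and rearranges by inversion. At the low end stood Trbv23 at 25.6, Trbv30 at 11.1 and Trbv21 at 1.49 CPM per kilobase. The beta segments spanned more than the alpha segments, whose levels per kilobase ran from 1.01 (Trav6-3) to 31.7 (Trav14-1) with a median of 7.96, against a beta median of 123.

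As a share of beta segment counts, Trbv3 held 12.1% (10.9% to 13.6% over the 12 libraries) and Trbv13-2 10.6% (9.79% to 11.8%). Their ranges overlapped, but within a library Trbv3 held the larger share in 11 of 12, the exception being WT Low replicate 2. The 4 leading beta segments took 37.9% of the counts and the 8 leading ones 64.1%. Usage was steady from library to library. The coefficient of variation of a segment's share had a median of 7.93% and was lowest for Trbv13-1 (3.53%, with shares from 4.87% to 5.41%). It was highest for Trbv12-1, at 33.3%, with shares from 1.93% to 5.09%, followed by the scarce Trbv21 and Trbv30 at 25.8% each. The effective number of beta segments in use, the exponential of the Shannon entropy of the shares, lay between 16.0 and 16.4.

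**Figure D2:**
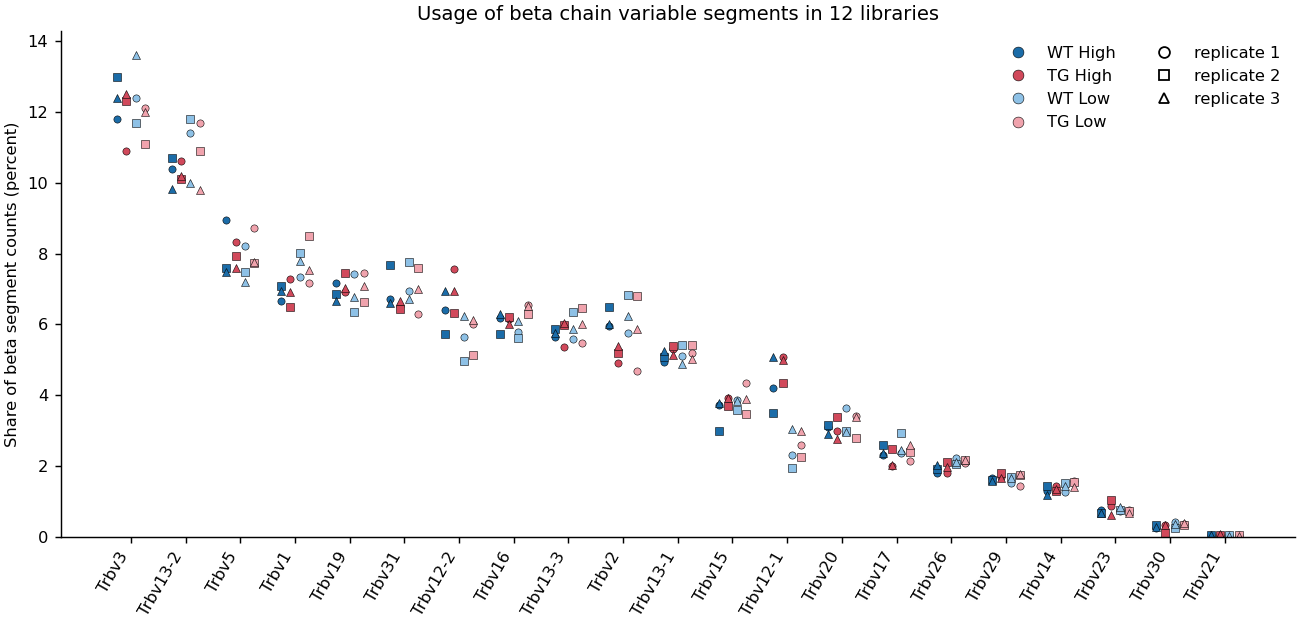
Share of each beta V segment in a library's beta segment counts (percent), for 12 libraries coloured by group and shaped by replicate number, segments ordered by mean share. Most segments form tight columns; the CD25 High libraries of Trbv12-1 sit at 3.50% to 5.09% and the CD25 Low libraries at 1.93% to 3.03%.

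Counts were more evenly spread over the alpha segments. Trav14-1 led with 7.66% of alpha counts (5.92% to 8.92%), followed by Trav12-2 with 5.56% and Trav13-1 with 4.26%, and the median segment held 1.98%. Per kilobase the next 5 were Trav5-1 (17.4 CPM per kilobase), Trav17 (15.1), Trav1 (14), Trav14-2 (13.7) and Trav21-dv12 (13.4), the last being the kept segment nearest to the joining segments. Trav14-2 ends in the same 45 bases as Trav14-1 and was the steadiest alpha segment, with a coefficient of variation of 8.27%. The lowest were Trav13-4-dv7 (1.53), Trav9n-4 (1.46) and Trav6-3 (1.01 CPM per kilobase), with 22.9%, 11% and 12.8% of their 50-base stretches to themselves. Of the 8 highest, Trav5-1, Trav17, Trav1 and Trav21-dv12 have 100% of their stretches to themselves. Trav14-1 has 95.1%, Trav12-2 70.8%, Trav13-1 54.6% and Trav14-2 54.4%, where the median alpha segment has 56%. Between 38.0 and 40.7 alpha segments were in effective use per library. Alpha shares, ranks and the effective number therefore also depend on how shared reads were counted.

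Alpha segments summed to 143 to 156 CPM in the 6 CD25 High libraries and 166 to 197 in the 6 CD25 Low libraries, ranges that did not overlap, and the High library was the lower one in 6 of 6 pairs of the same genotype and number. Trac, the alpha constant region, was 480, 490 and 438 CPM in WT High, 503, 444 and 491 in TG High, 604, 605 and 546 in WT Low, and 662, 558 and 675 in TG Low. Every High library was below every Low library. Over both genotypes Trac was 0.36 lower on the log2 scale in CD25 High (log2 difference -0.36, SE 0.07, edgeR quasi-likelihood test, Benjamini-Hochberg adjusted p = 0.0426, and 0.00153 with the block, or 0.0629 with the block but without the libraries numbered 1), where 61 of 11766 genes (0.518%) were called without the block. Fewer cells with a given transcript and less of it per cell cannot be told apart in RNA of sorted populations.

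The alpha segments went the same way in number but not one by one past the threshold. All 46 had a negative log2 difference (CD25 High minus Low, mean of both genotypes), with a median of -0.27 and a range from -1.11 to -0.01, where 49.96% of all tested genes were negative. In edgeR without the block no alpha segment was called and 9 of 46 had an unadjusted p under 0.05, against 8.68% of all genes. With the block none was called and 12 of 46 had such a p, against 18.2% of all genes. DESeq2 called none, with 7 of 46 such, against 9.22%. In WT 42 and in TG 44 of the 46 were negative, with medians of -0.22 and -0.30. These segments share libraries and a locus, so the count of signs is a description. When each alpha segment was scaled to the summed alpha counts of its library, which removes a shift common to the chain, the median difference was -0.01 and 25 of 46 were negative.

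Trav1 had the smallest alpha p of this comparison. It was 4.82, 5.23 and 3.92 CPM in WT High, 4.35, 3.67 and 4.31 in TG High, 5.95, 5.51 and 5.09 in WT Low, and 7.12, 5.91 and 6.52 in TG Low. The High library was the lower one in 6 of 6 pairs, with a log2 difference of -0.45 (SE 0.14, edgeR adjusted p = 0.273, and 0.0706 with the block). Trav14-2 stood at 3.98 to 5.19 CPM in High and 5.20 to 6.68 in Low (log2 difference -0.38, SE 0.14, edgeR adjusted p = 0.419), ranges that met without overlapping. In WT alone the alpha segments with the smallest p were Trav9-2 (log2 difference -0.55, SE 0.22) and Trav4-4-dv10 (-0.46, SE 0.21), each at an edgeR adjusted p of 1. In TG they were Trav8n-2 (log2 difference -0.78, SE 0.23, edgeR adjusted p = 0.567) and Trav1 (-0.66, SE 0.20, edgeR adjusted p = 0.617).

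Beta segments summed to 1118 to 1208 CPM in CD25 High and 1043 to 1321 in CD25 Low, ranges that overlapped, with the High library the lower one in 5 of 6 pairs. Trbc1 ran from 298 to 319 CPM in High and 296 to 352 in Low (log2 difference -0.06, SE 0.06, edgeR adjusted p = 0.89), and Trbc2 from 1166 to 1293 and 1182 to 1482 (-0.14, SE 0.06, edgeR adjusted p = 0.559), lower in High in 6 of 6 pairs. The 95% intervals of these log2 differences were -0.18 to 0.06 for Trbc1 and -0.27 to -0.02 for Trbc2. Of the 21 beta segments 18 had a negative difference, with a median of -0.11, and 13 were negative after scaling to the beta total. Relative to their constant regions both chains had more V counts in CD25 High. Beta segments per Trbc1 and Trbc2 count stood at 0.740 to 0.753 in High and 0.699 to 0.733 in Low, and alpha segments per Trac count at 0.302 to 0.327 and 0.291 to 0.312, higher in High in 6 of 6 pairs for each chain.

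Trbv12-1 was 1 of 3 beta segments with a positive log2 difference between the gates, with Trbv12-2 and the scarce Trbv21, and had the largest of the 3. It was 48.8, 39.4 and 59.4 CPM in WT High, 56.7, 48.7 and 60.4 in TG High, 27.9, 22.1 and 37.6 in WT Low, and 33.0, 23.6 and 39.7 in TG Low, in the order of replicates 1 to 3. The High library was the higher one in 6 of 6 pairs, and pooled over numbers the gates met only at TG Low replicate 3 and WT High replicate 2. As a share of beta counts it stood at 4.54% on average in High and 2.52% in Low, without overlap. The mean level was 1.70-fold higher in High.

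Over both genotypes the Trbv12-1 difference was 0.77 on the log2 scale (SE 0.16, edgeR adjusted p = 0.0652), not past the threshold without the block. With the block it was 0.78 (SE 0.07, 95% interval 0.64 to 0.92, edgeR adjusted p = 4.89e-06), where 692 of 11766 genes (5.88%) were called. DESeq2 without the block gave 0.77 (adjusted p = 0.000616), where it called 2.18% of all genes. In WT alone the difference was 0.75 (SE 0.23, edgeR adjusted p = 0.817) and with the block 0.76 (SE 0.10, adjusted p = 0.000564). In TG alone it was 0.79 (SE 0.23, edgeR adjusted p = 0.558) and with the block 0.80 (SE 0.10, adjusted p = 0.000495). It was the only V segment called with the block in WT (1 of 67, against 1.63% of all genes) and in TG (1 of 67, against 1.68%); without the block none was called in either, against 0.051% and 0.0085% of all genes. Unadjusted p under 0.05 was reached without the block by 3 of 67 segments in WT and 9 of 67 in TG, against 3.32% and 4.91% of all genes. In the fits with the block that left out each of the 12 libraries in turn, the difference over both genotypes lay between 0.74 and 0.83 and was called in 12 of 12. Without the block it was called in 2 of 12, without WT Low replicate 3 and without TG Low replicate 3.

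Trbv12-2, the neighbouring segment of the group, moved less. It was 74.2, 64.4 and 81.2 CPM in WT High, 84.6, 70.7 and 83.9 in TG High, 68.2, 56.8 and 77.3 in WT Low, and 76.7, 53.6 and 81.0 in TG Low. High was above Low in 6 of 6 pairs, but the gates overlapped widely. Its log2 difference over both genotypes was 0.15 (SE 0.12, edgeR adjusted p = 0.841) and 0.16 with the block (SE 0.06, adjusted p = 0.165). Scaled to the beta total and with the block it was 0.23 (edgeR adjusted p = 0.0229). Trbv12-1 per Trbv12-2 count was 0.612 to 0.732 in the 6 High libraries and 0.390 to 0.490 in the 6 Low libraries, a ratio within each library that does not depend on scaling between libraries.

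Trbv1 was lower in CD25 High. It was 76.9, 79.9 and 81.2 CPM in WT High, 81.6, 72.6 and 83.3 in TG High, 88.7, 92.2 and 96.7 in WT Low, and 91.6, 88.7 and 99.5 in TG Low. All 6 High libraries were below all 6 Low libraries. The log2 difference over both genotypes was -0.23 (SE 0.06, edgeR adjusted p = 0.14), and with the block it was -0.23 (SE 0.05, adjusted p = 0.0194). With the block the call was lost without WT High replicate 1, WT High replicate 3, WT Low replicate 2 or TG Low replicate 1 (highest adjusted p 0.0645), when the libraries numbered 1 were left out together (-0.25, adjusted p = 0.191), and when scaled to the beta total (-0.16, adjusted p = 0.148). It and Trbv12-1 were the 2 of 67 segments called with the block (2.99%, against 5.88% of all genes). Without the block DESeq2 also called 2 of 67, 1 higher and 1 lower in CD25 High, against 2.18% of all genes.

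**Figure D3:**
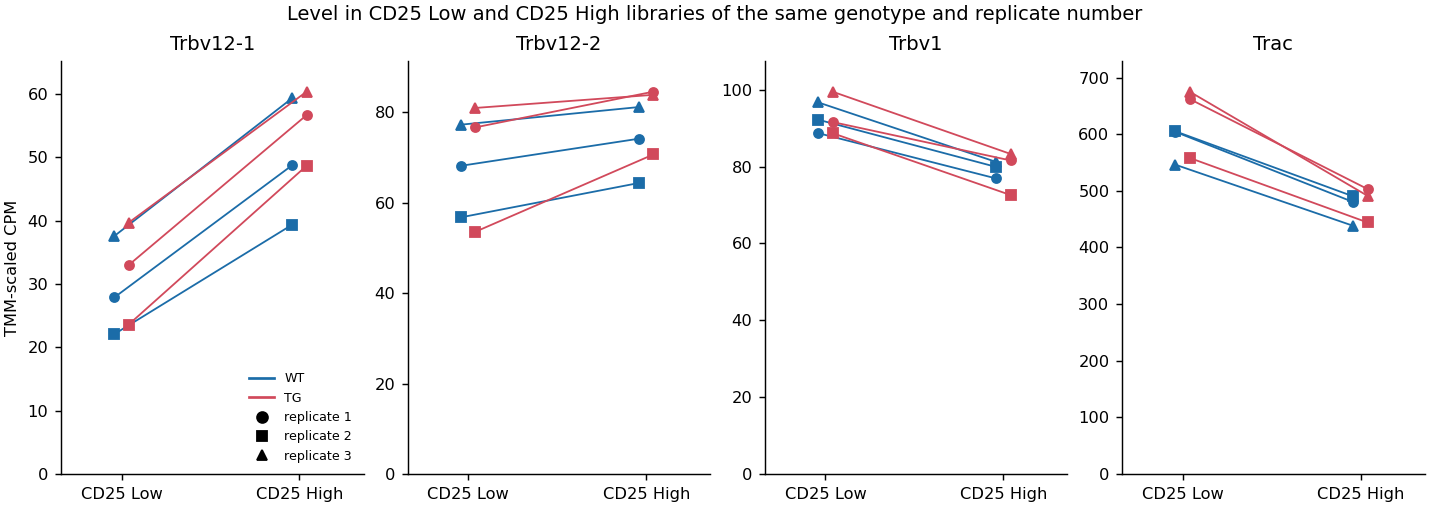
TMM-scaled CPM of Trbv12-1, Trbv12-2, Trbv1 and Trac, with a line joining the CD25 Low and CD25 High library of the same genotype and replicate number. All 6 lines of Trbv12-1 and Trbv12-2 go up and all 6 of Trbv1 and Trac go down.

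**Figure D4:**
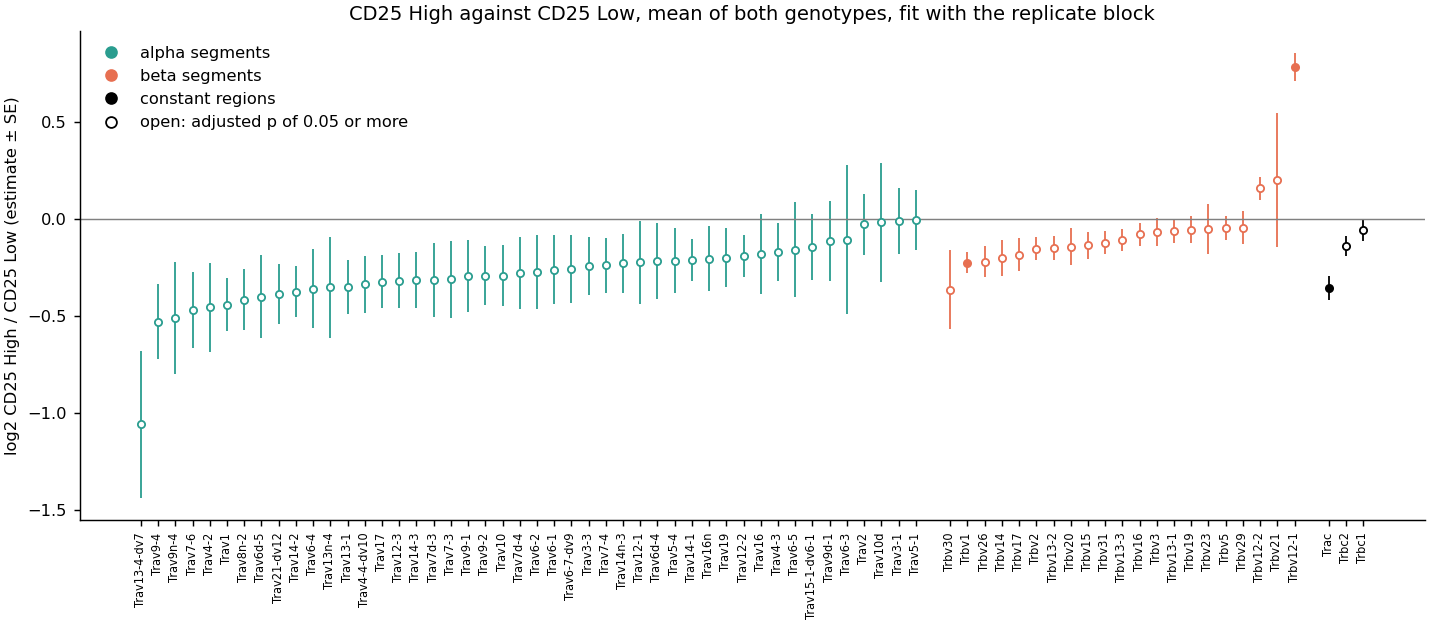
Log2 difference between CD25 High and CD25 Low (mean of both genotypes, fit with the replicate block) for 46 alpha segments, 21 beta segments and the 3 constant regions, with bars of 1 SE. Filled points (Trbv12-1, Trbv1 and Trac) have an adjusted p under 0.05; alpha points run from -1.06 to -0.01.

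Other cell markers beside the gate were as follows. The Treg genes Foxp3, Il2ra, Ctla4 and Ikzf2 summed to 2923 to 3377 CPM in High and 1933 to 2241 in Low. Of these, Foxp3 and Il2ra, the gene of the sorted CD25, did not overlap between the gates. Ctla4 did (202 to 298 CPM in High and 132 to 279 in Low), and so did Ikzf2 (169 to 226 and 128 to 322). B cell genes overlapped (356 to 955 and 431 to 1039), as did CD8 T cell genes (29.3 to 38.6 and 26.9 to 41.1) and gamma delta T cell genes (14.7 to 32.6 and 12.4 to 23.1, 5 of 9 listed genes in the table). Naive T cell genes (Ccr7, Lef1, Tcf7 and Il7r) stood at 1935 to 2368 and 1960 to 2730. The invariant natural killer T cell list (Zbtb16, Klrb1c, Trav11, and Trav11d at 0) was at 0.536 CPM or below in High and ran from 0.053 to 6.09 in Low. Zbtb16 was 2.0 CPM in WT Low replicate 1 and 2.51 in TG Low replicate 1, libraries in which Trav11 was 0. Klrb1c is also counted in the natural killer cell list, so these 2 lists are not independent. The natural killer cell genes Ncr1, Klrb1c and Klrd1 summed to 0.0436 to 1.98 CPM in High and 0.053 to 13.8 in Low, and the myeloid genes Csf1r, C1qb, Lyz2 and Itgam to 7.04 to 33.9 and 6.11 to 94.7. The highest Low values of the invariant natural killer T cell, natural killer cell and myeloid lists were in libraries numbered 1. The part of these marker differences in the segment differences was not tested.

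In a list of 12 receptor genes (the constant regions, the CD3 chains Cd3d, Cd3e, Cd3g and Cd247, Ptcra, Cd4 and the signalling genes Lck, Zap70 and Lat), 11 were tested. All 11 had a negative difference between the gates over both genotypes, with a median of -0.09, and Trac was the 1 called without the block. With the block Zap70, the kinase that binds the activated CD3 chains, was also called; it stood at 238 to 304 CPM in High and 305 to 368 in Low. Cd3e overlapped between gates at 921 to 1108 and 978 to 1145 CPM, as did Cd3d at 532 to 643 and 542 to 736, Cd3g at 720 to 833 and 738 to 1049, Cd247 at 425 to 506 and 461 to 520, and Cd4 at 513 to 665 and 531 to 715.

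Loss of Atg5 in CD11c-expressing cells went with no called difference in any V segment. In CD25 High, in CD25 Low and over both gates 0 of 67 segments were called by edgeR without the block, with it, or by DESeq2. Among all 11766 genes 0% were called in each gate, and 0% over both gates without the block, 0.051% with it and 0.0085% by DESeq2. Of the 67 segments, 1 reached an unadjusted p under 0.05 without the block in CD25 High, 2 in CD25 Low and 3 over both gates. Among all genes the shares were 0.841%, 0.408% and 1.39%. Summed alpha levels were 149 ± 5.64 CPM in WT High and 150 ± 6.61 in TG High, while the CD25 Low groups had 174 ± 3.04 (WT) and 186 ± 17.4 (TG), as mean ± SD of n = 3. Summed beta levels were 1150 ± 21.9 and 1148 ± 51.4, and 1200 ± 46.0 and 1214 ± 150. Each TG mean lay within the spread of its libraries from the WT mean.

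Trbv2 had the smallest p of the beta segments between genotypes. It was 68.9, 73.0 and 70.3 CPM in WT High and 55.0, 58.0 and 64.9 in TG High, groups that did not overlap, and 69.7, 78.6 and 77.3 in WT Low and 59.8, 71.0 and 77.7 in TG Low, groups that did. TG was the higher one in 1 of 6 pairs. The log2 difference (TG minus WT) was -0.25 in CD25 High (SE 0.11, 95% interval -0.46 to -0.04, edgeR adjusted p = 1) and -0.18 over both gates (SE 0.07, edgeR adjusted p = 1, and 0.511 with the block).

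Of the alpha segments, Trav15-1-dv6-1, whose name marks use by both alpha and delta chains, was below WT in 6 of 6 pairs. It stood at 3.64, 3.96 and 4.71 CPM in WT High, 2.70, 1.38 and 3.52 in TG High, 4.06, 3.71 and 4.70 in WT Low, and 2.77, 2.57 and 4.29 in TG Low. The groups overlapped in CD25 Low, and the log2 difference over both gates was -0.52 (SE 0.23, edgeR adjusted p = 1, and 0.511 with the block). Trav14-3 lay above WT in 6 of 6 pairs, with 3.38, 3.08 and 3.01 CPM in WT High, 3.45, 3.67 and 3.56 in TG High, 3.44, 3.87 and 3.38 in WT Low, and 5.02, 5.0 and 4.66 in TG Low. Its log2 difference was 0.46 in CD25 Low (SE 0.20, edgeR adjusted p = 1) and 0.32 over both gates (SE 0.14, edgeR adjusted p = 1). Trav8n-2 was 3.08, 3.22 and 3.23 CPM in WT Low and 3.84, 4.90 and 4.93 in TG Low (log2 difference 0.52, SE 0.23, edgeR adjusted p = 1), while in CD25 High it was 3.11, 3.12 and 2.83 in WT and 2.39, 2.45 and 3.09 in TG.

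The remaining segments ranked by this comparison were Trav9-2 (log2 difference 0.43, SE 0.22) and Trbv23 (0.26, SE 0.19) in CD25 High, Trbv16 (0.17, SE 0.11) in CD25 Low, and Trbv17 (-0.13, SE 0.09) over both gates, each at an edgeR adjusted p of 1. A p that misses the threshold does not show that the genotypes are alike. For the leading beta segment Trbv3 the groups stood at 142 ± 5.14 CPM in WT High and 137 ± 14.3 in TG High, and in CD25 Low at 151 ± 16.9 (WT) and 143 ± 23.8 (TG), as mean ± SD of n = 3. For Trbv13-2 they stood at 119 ± 3.44, 118 ± 5.53, 133 ± 7.70 and 131 ± 18.1 in the same order.

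No segment was called for a genotype effect that differed between the gates (0 of 67, against 0% of all genes with and without the block). One reached an unadjusted p under 0.05 in edgeR, Trav8n-2 (difference of log2 effects -0.71, SE 0.32, adjusted p = 1), and none did in DESeq2. Trav13-4-dv7, among the 3 scarcest alpha segments, had the next smallest p (-1.69, SE 0.87, edgeR adjusted p = 1). It was 0.424, 0 and 0.234 CPM in TG High and 1.18, 0.959 and 0.848 in TG Low, against 0.482, 0.421 and 0.654 in WT High and 0.667, 0.764 and 0.440 in WT Low, and rests on 141 counts in all. For Trbv12-1 the CD25 differences of the genotypes themselves differed by 0.04 on the log2 scale with the block (SE 0.14, 95% interval -0.24 to 0.31, edgeR adjusted p = 1).

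Some V segments varied with the replicate number across all 4 groups. With the groups held constant, 5 of 67 were called in edgeR (7.46%), where 4030 of 11766 genes were (34.3%). By chain these were 1 of 46 alpha segments (2.17%) and 4 of 21 beta segments (19.0%). Both shares were below that of all genes. Alpha segments together had only 933 to 3828 counts per library, which limits what the test can call among them. The median range between the 3 numbers was 0.19 on the log2 scale for V segments and 0.27 for all genes. The 5 were Trbv12-1, Trbv12-2, Trbv15, Trbv5 and Trav14-1.

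Trbv12-1 averaged 41.6, 33.5 and 49.3 CPM in the libraries numbered 1, 2 and 3 (range 0.61 on the log2 scale, edgeR adjusted p = 0.00023). Trbv12-2 averaged 75.9, 61.4 and 80.9 (range 0.41, adjusted p = 0.0015), and Trbv15 47.2, 38.0 and 47.5 (range 0.33, adjusted p = 0.013). Trav14-1 averaged 13.3, 10.3 and 14.3 (range 0.47, adjusted p = 0.0264), and as a share of alpha counts it was 5.92% to 6.82% in the 4 libraries numbered 2 and 6.95% to 8.92% in the other 8. Trbv5 averaged 102, 85.2 and 92.6 (range 0.26, adjusted p = 0.0375), with the mapping limit given above. All 5 were lowest in number 2. Trbv16 had the next smallest p and did not pass (73.4, 66.0 and 76.8 CPM, range 0.22, edgeR adjusted p = 0.0656). The call count rested on some libraries: leaving out WT High replicate 2 gave 3, leaving out TG High replicate 3 gave 3, and leaving out TG Low replicate 2 gave 2.

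**Figure D5:**
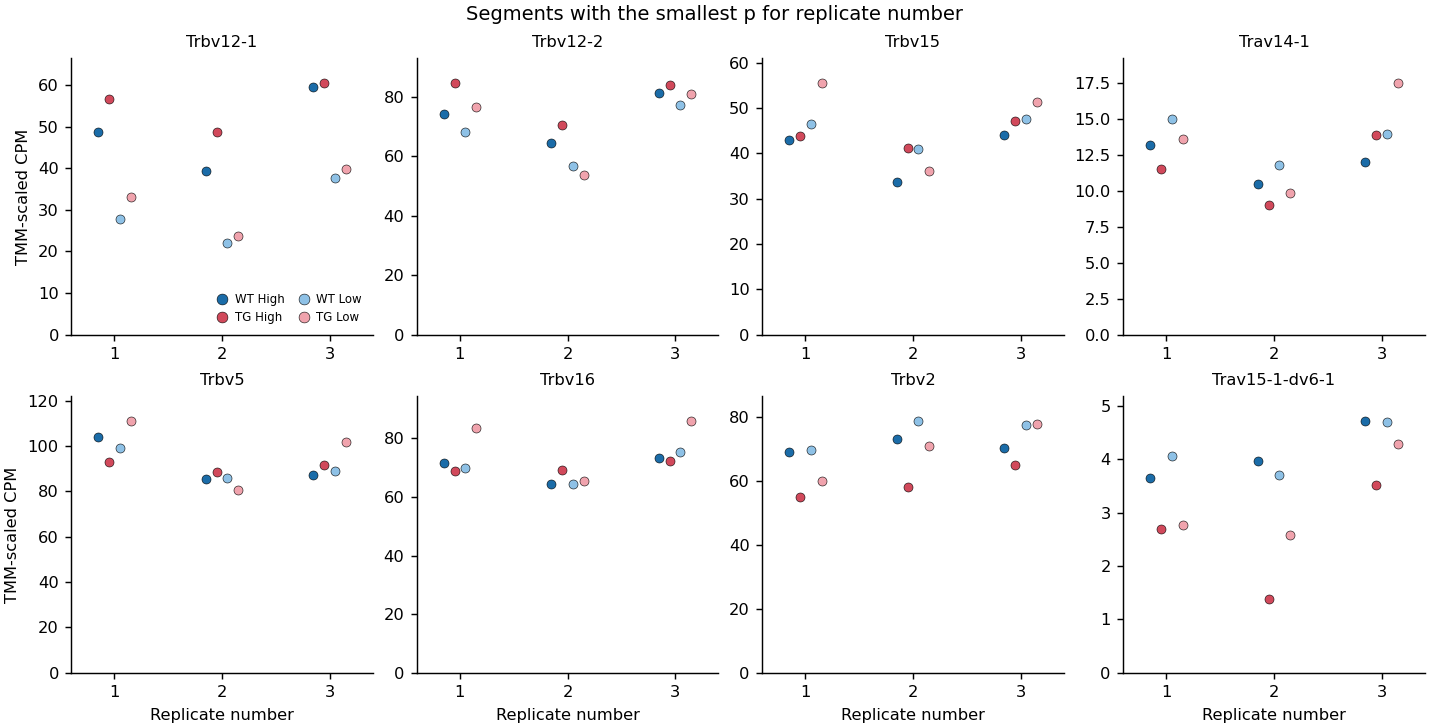
TMM-scaled CPM of the 8 V segments with the smallest p for replicate number, by replicate number and coloured by group. Trbv12-1, Trbv12-2, Trbv15, Trav14-1 and Trbv5 passed the test (adjusted p 0.00023 to 0.0375); for Trbv12-1 the CD25 High points lie above the CD25 Low points of the same number.

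Markers of other cells moved with the number too. B cell genes summed to 680 to 1039 CPM in the libraries numbered 1, 512 to 585 in number 2 and 356 to 518 in number 3, and 4 myeloid genes to 16.3 to 94.7, 6.11 to 13.5 and 6.57 to 9.59. The CD4 T cell genes Cd4, Cd3e, Cd3d and Cd3g summed to 3135 to 3644, 2690 to 3115 and 2825 to 3392 CPM in the same order. In edgeR 2 of the 11 tested receptor genes, Cd4 and Cd3d, were called for the number, against 34.3% of all genes. The part of other cells in the segment differences was not tested. Without the 4 libraries numbered 1 and with the block, Trbv12-1 was still called between the gates, at 0.78 over both genotypes (edgeR adjusted p = 0.000935), 0.74 in WT (adjusted p = 0.037) and 0.82 in TG (adjusted p = 0.0295).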

How the data were processed

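RNA-seq counts covered 12 libraries, and their 4 groups of 3 were taken from the sample titles. The authors deposited raw counts per Ensembl gene, whole numbers without scaling. The submitters' processing notes name STAR 2.4, featureCounts 1.4.6 and CASAVA 1.8.2 and the build GRCm38. How strand and reads aligning to several genes were handled is not given in the sources used here. Per the labels' protocols cDNA was amplified from 10 ng of total RNA, without molecular identifiers, so counts are not independent molecules. Bases added at V, D and J junctions are in no reference, so reads there may go uncounted.

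Identifiers were matched to GENCODE vM21 for 21628 of 21839 genes. For each segment the 50-base stretches found in no other annotated transcript, on either strand, were counted. Counts were tested with edgeR 4.0.16 in R 4.3.3: TMM scaling, filterByExpr (minimum count 10, 11766 genes kept), robust quasi-likelihood fits over all 12 libraries with 4 groups as levels, and Benjamini-Hochberg adjustment over all tested genes at 0.05. A 95% interval extends 1.96 SE to either side of an estimate, which is narrower than the quasi-likelihood test implies. For Trav15-1-dv6-1 between genotypes in CD25 High it was -1.32 to -0.01, with an unadjusted edgeR p of 0.0699. The edgeR fit without the block was tested on simulated counts without a replicate effect, for the CD25 difference over both genotypes. The other fits were not tested in this way. Alternatives were the replicate block, DESeq2 1.42.0, its size factors in edgeR, no low count filter, scaling to each chain's summed counts, leaving out each library, and leaving out the libraries numbered 1.

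The labels do not say what the replicate numbers mark. Deviations from group means over tested genes correlated at 0.34 to 0.83 between same-numbered libraries of different groups (18 pairs) and at -0.688 to 0.197 otherwise (36 pairs), and 12 of 12 libraries matched their own number best, so the numbers pair the samples; this pairing comes from the data. Each pair of replicates of a group was compared, and their counts differed by a chi-square of 21.3 to 49.8 per degree of freedom, so no pair agreed within sampling noise.

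The members, lists and tests were chosen with earlier results of these data known. Some items are not reported here. Segments are named by rule: per chain the 8 highest and 3 lowest per kilobase, those called in any comparison, the 2 per chain with the smallest p in each comparison, and the 8 with the smallest p for replicate number. Trav18, Trav13n-3, Trav6d-3, Trav11, the rows of the near-empty block and Trbv13-1 were named after their values were seen.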

Additional observations from a re-analysis of the deposited data

How the results depend on the processing

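The count of V segments called between the CD25 gates depended on the replicate block, and over both genotypes also on the test and scaling. In WT and in TG alone, where none was called in the fit without the block, 1 was called with the replicate block, 1 with the block after scaling to chain totals (1.62% of all genes in WT, 1.68% in TG), and 1 with the block and without the libraries numbered 1 (0.424% and 0.337%). Over both genotypes 2 were called with the block (all genes 5.88%), 2 by DESeq2 (2.18%), 1 after scaling to chain totals (0.527%), 2 with that scaling and the block (5.88%), and 1 with the block and without the libraries numbered 1 (1.53%). Leaving out each library in turn, with or without the block, gave 0 to 1 segments in WT, 0 to 1 in TG and 0 to 2 over both genotypes. For replicate number the count was 3 after scaling to chain totals (34.3% of all genes) and 3 without the libraries numbered 1 (8.08%), against 5, and 2 to 6 with a library left out. No segment was called for genotype or for the difference of genotype effects under any of these settings, and no value of a named segment past the threshold changed sign. With the block over both genotypes, calls among all genes rose from 61 to 692; the cause was not tested.

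Depth limits the alpha chain most, with 933 to 3828 alpha counts per library against 7306 to 26802 beta counts. Both lowest values belong to TG High replicate 2. Values of alpha segments with near-identical copies, and of Trbv5, also depend on how shared reads were counted.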

Other observations

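Joining and diversity segments, which no comparison above uses, were present beside the V segments. The table held 50 Traj rows with 19457 counts over the 12 libraries, 13 Trbj rows with 51010 and 2 Trbd rows with 4052, and each of these rows had counts. Trbj2-7 was the highest joining segment of the beta chain, with a mean of 36.8 CPM (28.3 to 44.0 over the 12 libraries), followed by Trbj2-1 at 23.1 CPM (20.2 to 26.6). Summed alpha joining segments stood at 67.0 to 80.6 CPM in CD25 High and 89.5 to 102 in CD25 Low, lower in High in 6 of 6 pairs, as the alpha V segments and Trac were. Per Trac count they overlapped between the gates, at 0.145 to 0.176 in High and 0.136 to 0.166 in Low, and were higher in High in 3 of 6 pairs. Summed beta joining segments overlapped at 188 to 241 and 196 to 254 CPM. These sums were not tested.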
